A study of Mus musculus with 14 samples.

Results

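The 10 genes described here, Sat1, Odc1, Amd1, Srm, Sms, Azin1, Oaz1, Oaz2, Smox and Paox, encode the enzymes that make and recycle polyamines and the proteins that regulate the first of them. They were picked by name from the 56748 genes of the table, and all 10 passed the filter on low counts that left 16882 genes for testing. The choice was made with the genotype difference of these genes in view, so their differences between genotypes are given as a description and carry no test of their own.

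RNA of whole brain (1 sagittal side) was sequenced from 7 Rik null and 7 wild type (WT) mice at postnatal day 23, all of strain C57BL6/J, with either sex in both groups (4 females and 3 males labelled Rik null, 3 females and 4 males labelled WT). Rik null mice carry a spontaneous deletion in the first intron of 2310061I04Rik (Rik), which arose in a single embryonic stem cell clone during work on a Traf7 allele and was separated from that allele by backcrossing, and no Cre driver or transgene is part of the comparison. These animals are runted and ataxic and die at about the age sampled, so genotype and late disease cannot be told apart at this one age. Replicates are separate animals by their labels. The paper's figure legend for postnatal day 23 gives other group sizes than 7 and 7, and the sample labels were followed here.

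Polyamines (putrescine, spermidine and spermine) are small positively charged molecules that bind RNA and DNA and are needed for growth and protein synthesis. Ornithine decarboxylase makes putrescine from ornithine, and spermidine and spermine synthases extend it with aminopropyl groups from decarboxylated S-adenosylmethionine (SAM). Antizymes bind ornithine decarboxylase and send it to the proteasome, antizyme inhibitors take up the antizyme, and the acetyltransferase SAT1 marks spermidine and spermine for oxidation or export. In the brain, spermine and spermidine also block certain potassium channels and glutamate receptors from within the cell.

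Several of these genes sense polyamines through their own messenger RNA, and 3 stretches that do so are shown because they belong to members whose levels are described below. Antizyme mRNAs hold a stop codon that ribosomes bypass by a frameshift when polyamines are plentiful, and the capitals in the Oaz1 and Oaz2 windows mark the codon before the stop, the stop codon and the base that follows.
Oaz1: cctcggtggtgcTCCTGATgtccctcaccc
Oaz2: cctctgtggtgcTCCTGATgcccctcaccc
Amd1 upstream frame: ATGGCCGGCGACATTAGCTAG
The Oaz1 window lies at chr10:80828280-80828309 and the Oaz2 window at chr9:65686257-65686286, both on the plus strand of GRCm38 in exons of GENCODE transcripts. They are identical at 28 of 30 positions. The Amd1 stretch at chr10:40302155-40302175, on the minus strand, is the short upstream reading frame in the 5′ UTR, shown in capitals from its start codon to its stop codon, at which ribosomes stall when polyamines are high. Ribosome stalling and frameshifting act on translation and were not measured by these counts of RNA.

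The genotype labels held in every library. Rik itself had 18 to 56 counts in Rik null libraries and 483 to 687 in WT libraries, and its level fell by 3.86 on the log2 scale (SE 0.15). Total counts were 14.7 to 17.9 M per Rik null library and 14.7 to 17.0 M per WT library. On the first principal component of log2 CPM (CPM are counts per M counts of a library), Rik null replicate 1 lay away from its group (score -54.5, against -23.8 to -22.0 in the other 6 Rik null libraries), and WT replicate 4 did so on the third (-45.0). The library of Rik null replicate 4, labelled male, held 7491 counts of Xist and 0 counts of the Y-linked Ddx3y, and the other 13 libraries matched their sex labels. It was kept under its label, and comparisons by sex are given with and without it.

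Among the 10 genes, Sat1 was higher in Rik null brains, while Srm, Amd1, Azin1 and Oaz1 were lower, at an adjusted p of at most 0.05 over all genes (edgeR quasi-likelihood test, Benjamini-Hochberg). The other 5, Odc1, Sms, Oaz2, Smox and Paox, were on the other side of that threshold. Of all genes tested, 34.4% were called in either direction, 16.5% higher and 17.9% lower in Rik null. Sat1 was the only member past 2-fold, a size that 3.54% of tested genes reached together with the threshold. The median log2 fold change of the 10 genes was -0.18, beside a median of -0.0005 over all genes. Because these values took part in the choice of the genes, nothing is read from how their count compares with those shares.

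**Figure D1:**
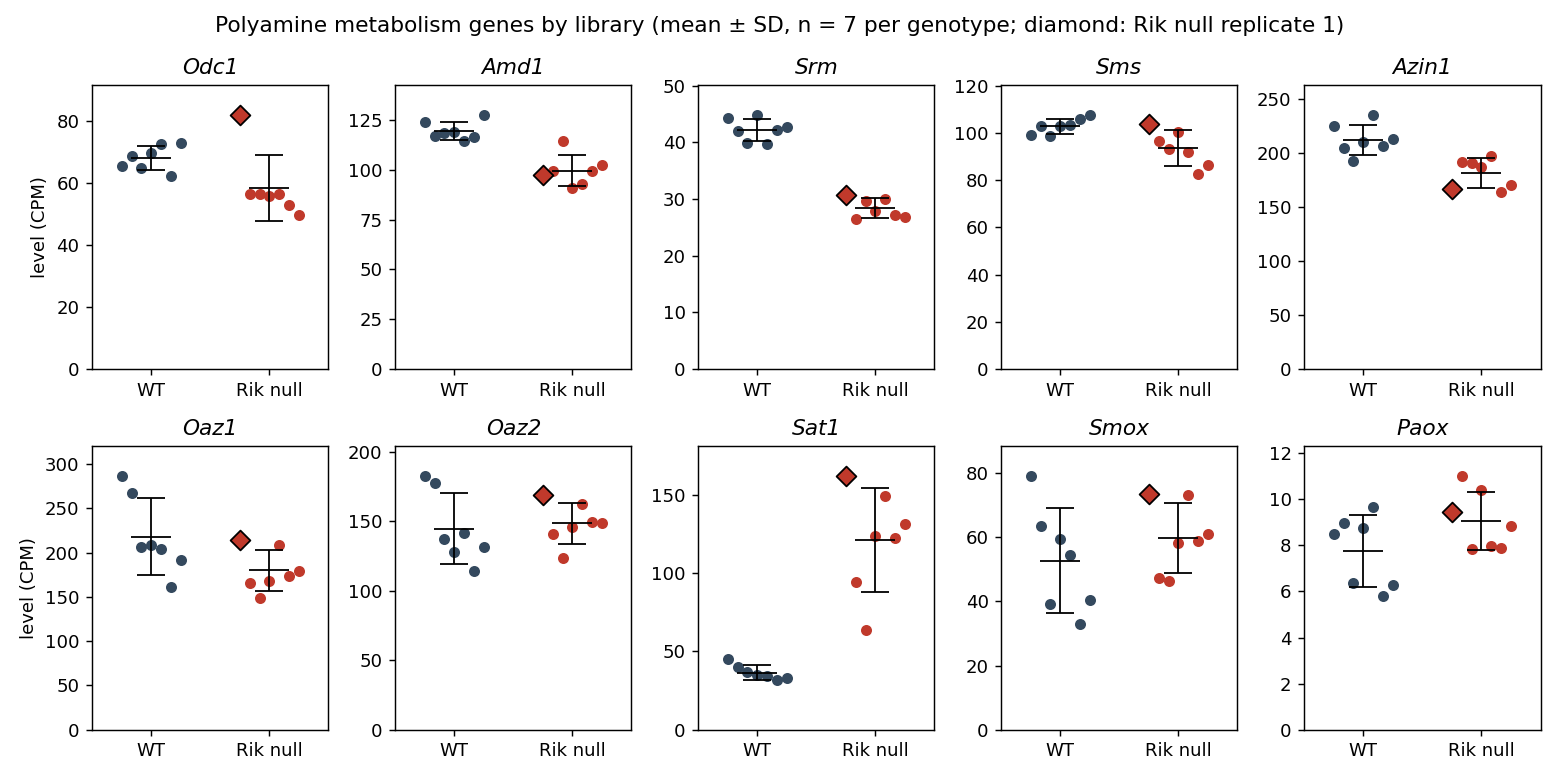
Level of each of the 10 genes (CPM, y axis from 0) in each library, by genotype, with the mean and SD of 7 libraries in black and Rik null replicate 1 as a diamond. The Rik null and WT points of Sat1 and of Srm do not overlap, and the diamond is above every WT library for Odc1.

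Sat1, on the X chromosome (GRCm38 chrX:155213132-155216449, minus strand), encodes spermidine/spermine acetyltransferase, the rate-limiting enzyme of polyamine back-conversion. Its level, in CPM scaled by the trimmed mean of M values (TMM), was lowest at 64.0, median 123.7 and highest at 162.0 in Rik null libraries, and 31.6, 34.8 and 45.0 in WT libraries. Every Rik null library was above every WT library, as for 5.38% of all tested genes, with Rik null replicate 3 the lowest and replicates 1 and 5 the highest. The means were 121 ± 33.1 CPM (SD, n = 7) and 36.5 ± 4.57 CPM (SD, n = 7), a 3.32-fold difference (log2 fold change 1.73, SE 0.15). Of the 10314 genes with a mean of at least 10 CPM, 5 had a larger log2 fold change. The Rik null libraries also spread more widely among themselves, with a coefficient of variation of 27.4% against 12.5% in WT. Leaving out any 1 library gave log2 fold changes of 1.65 to 1.84.

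The 120 bases before the annotated Sat1 start are printed because Sat1 held the largest difference, with each CG pair in capitals.
Sat1 upstream: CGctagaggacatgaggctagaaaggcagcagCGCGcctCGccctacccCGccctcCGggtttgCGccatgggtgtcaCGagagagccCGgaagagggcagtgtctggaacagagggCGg
This stretch, from RefSeq on GRCm38.p6 at chrX:155216450-155216569 and written 5′ to 3′ on the minus strand, held 10 CG pairs. RefSeq promoters, taken as 250 bases before to 50 after a start, were matched for 8 of the 10 genes in 10 windows. On both strands, the E-box CACGTG was in 1 of these windows (Sms) and in 7.15% of all 32851 promoters, and TATAAA was in 1 window (Oaz1) and in 13.6%. The cAMP response element TGACGTCA and the amino acid response element core TGATGCAA were in 0 of the 10 windows, beside 1.79% and 0.895% of all promoters, which says only that these letters are not in the windows.

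Of the 4 biosynthetic enzymes, Srm and Amd1 were lower and Odc1 and Sms did not pass. Srm (chr4:148591503-148594993, plus strand) encodes spermidine synthase. Its level was lowest at 26.5, median 27.9 and highest at 30.7 CPM in Rik null libraries, and 39.7, 42.2 and 44.8 CPM in WT libraries. The groups did not overlap, which held in the same direction for 7.03% of all tested genes and in either direction for 12.4%. Sat1 and Srm were the only 2 members without overlap. The means of 28.4 ± 1.70 and 42.2 ± 1.96 CPM (SD, n = 7 each) gave a 1.49-fold lower level in Rik null (log2 fold change -0.57, SE 0.06), with coefficients of variation of only 6.00% and 4.65%. Srm and Sat1 stayed past the threshold in all 25 alternative fits, including those that left out each library.

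Amd1 (chr10:40287458-40302186, minus strand) encodes S-adenosylmethionine decarboxylase, which supplies the aminopropyl groups. Its level was 90.9, 99.5 and 114.7 CPM (lowest, median, highest) in Rik null libraries and 114.7, 118.4 and 127.5 CPM in WT libraries. The groups met at a single point, Rik null replicate 3 lying at the level of WT replicate 5, and the log2 fold change was -0.26 (SE 0.06). The near-identical gene copy Amd2 took 2.99% of the counts of both, so reads shared between them could have been split by the counting. The log2 fold change of Amd2 itself was -0.97 (SE 0.41) and did not pass.

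Sms (chrX:157443855-157492287, minus strand) encodes spermine synthase. Its level was 82.6, 93.0 and 103.9 CPM in Rik null libraries and 98.6, 103.0 and 107.4 CPM in WT libraries. Rik null replicates 1 and 4 lay within the WT range and the other 5 below it, with a log2 fold change of -0.14 (SE 0.06) that did not pass. It passed without Rik null replicate 1 (-0.16) and without Rik null replicate 4 (-0.15). The copy Sms-ps held 13.6% of the counts of both, with a log2 fold change of its own of -0.10 (SE 0.11), and how reads were assigned between them is not given in the sources used here.

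Odc1 (chr12:17544794-17551505, plus strand) encodes ornithine decarboxylase, the rate-limiting enzyme of synthesis. Its level was 49.5, 56.2 and 81.7 CPM in Rik null libraries and 62.2, 68.7 and 72.9 CPM in WT libraries. Rik null replicate 1, the library that stood apart on the first principal component, was at 81.7 CPM, above all WT libraries, and the other 6 were at 49.5 to 56.4 CPM, below all of them. Over all 7 and 7 libraries the log2 fold change was -0.22 (SE 0.09) and did not pass. Without Rik null replicate 1 it was -0.31 and passed, with Rik null libraries at 49.6 to 56.5 CPM and WT libraries at 62.1 to 72.7 CPM, and 13.1% of 17012 genes did not overlap in that fit. Odc1 passed in 6 of 25 alternative fits, among them those without Rik null replicate 1 and without WT replicate 6 (-0.24). What set Rik null replicate 1 apart was not tested.

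Of the 3 regulators of ornithine decarboxylase, Azin1 and Oaz1 were lower and Oaz2 did not pass. Azin1 (chr15:38487427-38519266, minus strand) encodes the main antizyme inhibitor, which protects ornithine decarboxylase. Its level was 164.2, 187.5 and 197.7 CPM in Rik null libraries and 192.4, 210.0 and 235.1 CPM in WT libraries, with a log2 fold change of -0.23 (SE 0.06). Rik null replicate 5 was the only Rik null library above the lowest WT library. An antisense gene, Gm49077, overlaps Azin1 and had 93 counts over all 14 libraries.

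Oaz1 (chr10:80826656-80829290, plus strand) and Oaz2 (chr9:65668001-65690300, plus strand) encode the broadly expressed antizymes, made through the frameshift windows printed above. Oaz1 was at 148.5, 173.1 and 214.4 CPM in Rik null libraries and 160.7, 206.8 and 286.4 CPM in WT libraries. The ranges overlapped widely, since WT replicates 1 and 2 were at 286.4 and 266.9 CPM while WT replicate 6 was below 6 of the 7 Rik null libraries. Its log2 fold change of -0.28 (SE 0.11) passed narrowly, and it no longer passed in 13 of 25 alternative fits, which include the omission of any single library other than Rik null replicates 1 and 5 and WT replicates 6 and 7. Oaz2 was at 123.7, 149.1 and 169.0 CPM in Rik null libraries and 114.7, 137.6 and 182.7 CPM in WT libraries, a log2 fold change of 0.04 (SE 0.09). The copies Oaz1-ps and Oaz2-ps held 1.49% and 1.42% of the summed counts of copy and parent gene.

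The 2 oxidases of back-conversion did not pass. Smox (chr2:131491496-131525922, plus strand) encodes spermine oxidase, which turns spermine directly into spermidine. It was at 46.3, 58.8 and 73.7 CPM in Rik null libraries and 33.0, 54.6 and 79.1 CPM in WT libraries, a log2 fold change of 0.18 (SE 0.15), with the widest WT spread of the 10 genes (coefficient of variation 30.8%). Paox (chr7:140115799-140137224, plus strand) encodes the peroxisomal oxidase that acts on the acetylated polyamines SAT1 makes. It was the least abundant member, at 88 to 183 counts per library, with 7.84, 8.84 and 11.0 CPM in Rik null libraries and 5.82, 8.52 and 9.67 CPM in WT libraries (log2 fold change 0.22, SE 0.13). Paox shares exon sequence on the opposite strand with Echs1, whose log2 fold change was -0.22 (SE 0.07). Reads from the shared sequence cannot be told apart if counting ignored strand, and their number was not measured.

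**Figure D2:**
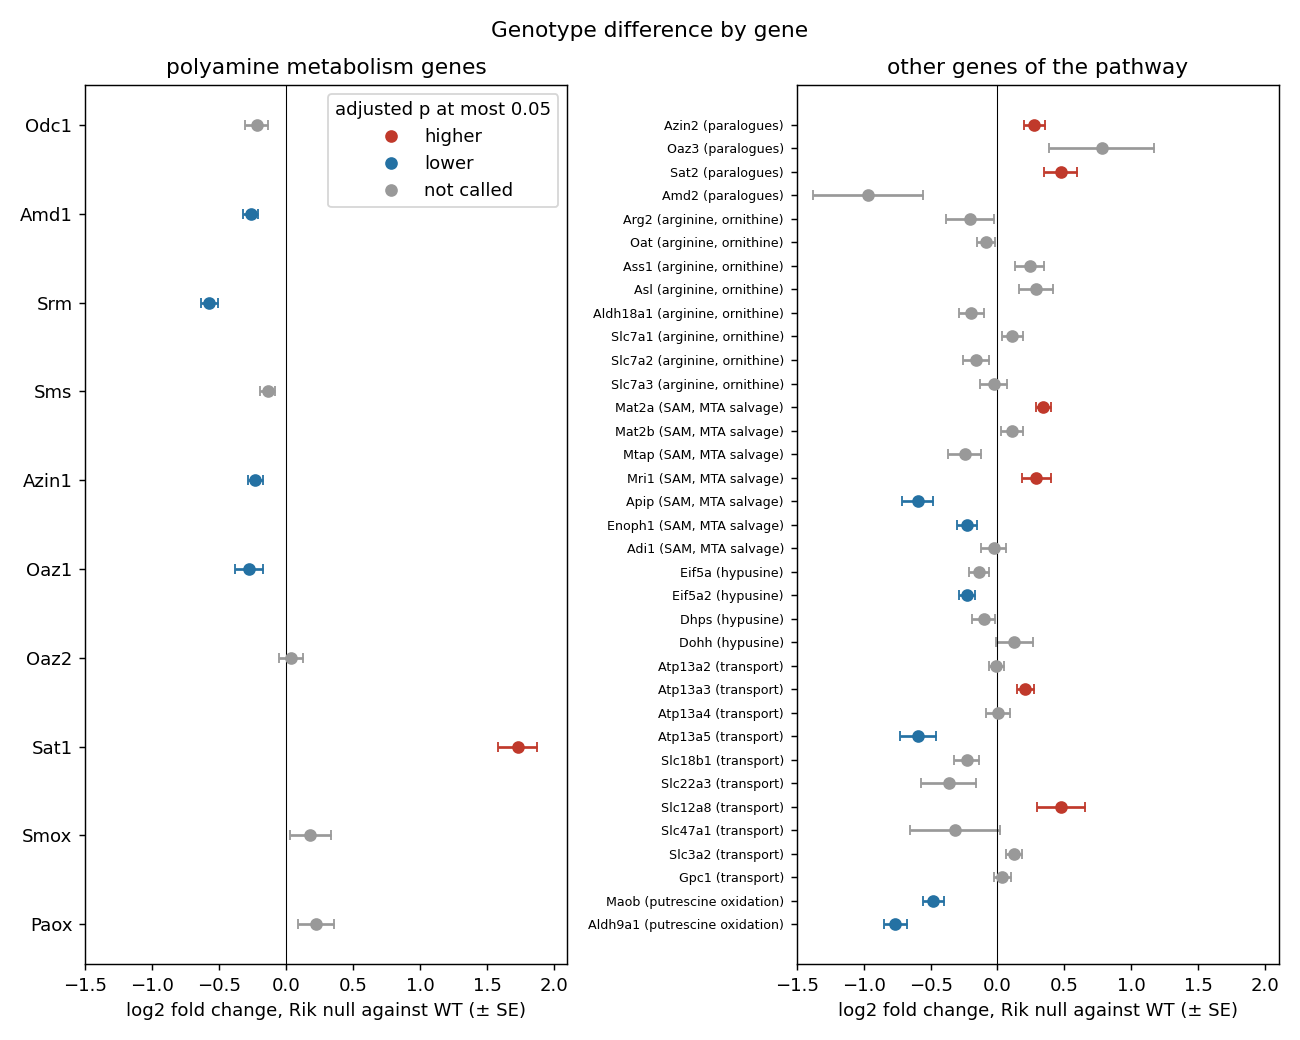
Log2 fold change of Rik null against WT with its SE (x axis) for the 10 polyamine metabolism genes (left) and 35 other genes of the pathway (right, role in brackets), coloured by whether the adjusted p over all genes was at most 0.05. Sat1 at 1.73 lies far to the right of the other points. Aldh9a1 at -0.76 is the lowest of the points that passed, and Amd2, which did not pass, is lower at -0.97.

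Per length, as FPKM, the order of the members in WT brains was Oaz1 (84.1 ± 16.8), Oaz2 (47.8 ± 8.38), Azin1 (33.6 ± 2.25), Amd1 (33.4 ± 1.27), Srm (26.1 ± 1.22), Odc1 (19.7 ± 1.19), Sms (16.9 ± 0.538), Smox (13.4 ± 4.12), Sat1 (13.0 ± 1.62) and Paox (1.56 ± 0.315; SD, n = 7). Antizyme mRNAs were thus the most abundant of the group and Paox the least. Azin1 with Amd1, and Smox with Sat1, differed by less than their spread, and the range of Smox (8.34 to 20.1 FPKM) also reached that of Sms and Odc1. In Rik null brains Sat1 was at 43.3 ± 11.8 FPKM (SD, n = 7) and moved from rank 9 to rank 3, behind the antizymes, although its range of 22.9 to 57.8 FPKM reached those of Oaz1, Oaz2, Azin1, Amd1 and Odc1. The order in WT was the same with TMM-scaled counts per kb. Both measures use the same counts and gene lengths, so this is not an independent check, and other lengths were not tried.

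The wider pathway was covered by 43 further genes listed by role, of which 35 passed the count filter. Of the 35, 6 were higher and 6 lower in Rik null brains and 23 did not pass, with a median log2 fold change of -0.03. This share is near the 34.4% of all genes called. All values in the next 3 paragraphs are from the same edgeR fit, adjusted over all genes.

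Both tested genes of putrescine oxidation were lower, beside 17.9% of all tested genes called lower. Aoc1, the third gene listed, was left out by the count filter. Maob, monoamine oxidase B, which oxidises acetylputrescine among other amines, was at 20.0 to 24.2 CPM in Rik null libraries and 27.1 to 35.9 CPM in WT libraries (log2 fold change -0.48, SE 0.08, adjusted p = 8.74e-05). Aldh9a1, the aldehyde dehydrogenase that turns the putrescine-derived aldehyde into GABA, was at 15.5 to 21.6 CPM against 26.7 to 34.3 CPM (log2 fold change -0.76, SE 0.08, adjusted p = 7.48e-07). Neither gene overlapped between genotypes, as for 7.03% of all tested genes in that direction. Both also act outside the polyamine pathway, and both kept their calls in all 25 alternative fits.

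Of the 7 tested genes for supply and salvage of methionine units, 2 were higher and 2 lower, beside 16.5% and 17.9% of all genes. No change of the pathway as a whole is read from these counts. Mat2a, which makes S-adenosylmethionine, was higher, at 169 to 213 CPM in Rik null libraries against 139 to 166 CPM (log2 fold change 0.34, SE 0.06, adjusted p = 9.32e-05). Its groups did not overlap, as for 5.38% of all tested genes in that direction. Mri1, of the salvage of methylthioadenosine (MTA, the by-product of spermidine and spermine synthesis), was also higher (log2 fold change 0.29, SE 0.11, adjusted p = 0.0464), while 2 further salvage enzymes were lower. These were Apip (log2 fold change -0.59, SE 0.12, adjusted p = 4.73e-04) and Enoph1 (log2 fold change -0.23, SE 0.08, adjusted p = 0.0255). Apip did not overlap between genotypes, as for 7.03% of all tested genes in that direction. The calls of Mri1 and Enoph1 were lost in 15 and 6 of 25 alternative fits, for Enoph1 also when Rik null replicate 3 (-0.20), Rik null replicate 6 (-0.21) or WT replicate 2 (-0.19) was left out.

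Of the 4 tested paralogues, 2 were higher, beside 16.5% of all tested genes. These were Azin2, an antizyme inhibitor of neurons and testis (log2 fold change 0.28, SE 0.08, adjusted p = 0.0104), and Sat2, a relative of SAT1 with other preferred substrates (0.47, SE 0.12, adjusted p = 0.00499). Oaz3 (0.78, SE 0.39) and Amd2 (-0.97, SE 0.41) did not pass. Thus Azin1 and Azin2 lay on opposite sides of 0. None of the 8 tested genes of arginine and ornithine supply passed (edgeR), with log2 fold changes of -0.20 to 0.29. At an unadjusted p under 0.05 there were 3 of these 8, and DESeq2 called 0. Of all genes, 34.4% passed even after adjustment, so the 3 are not read as a sign of change. The hypusine list holds the translation factor eIF5A, which is modified with spermidine, and the enzymes Dhps and Dohh that modify it, and of these genes Eif5a2, a form of the factor itself, was lower (log2 fold change -0.23, SE 0.06, adjusted p = 0.00555), whereas the remaining 3 did not pass. Among 10 transport genes, Atp13a3, a polyamine-transporting P-type ATPase, was higher (0.21, SE 0.06, adjusted p = 0.0141), as was Slc12a8, a member of the cation-chloride cotransporter family, at under 4 CPM (0.47, SE 0.18, adjusted p = 0.0446), a call lost in 17 of 25 alternative fits. Atp13a5, a related ATPase, was lower (-0.59, SE 0.14, adjusted p = 0.0019). Of all tested genes, 16.5% were called higher and 17.9% lower, and no change of the paralogue, hypusine or transport lists is read from their counts.

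Markers of oligodendrocytes, astrocytes and microglia were mostly lower in Rik null in the same libraries. Of all tested genes, 17.9% were called lower and 16.5% higher. All 10 oligodendrocyte markers were lower in Rik null (median log2 fold change -0.86), and their summed level was 13121 to 16381 CPM against 19335 to 23694 CPM in WT. Astrocyte markers were lower for 6 of 8 (summed level 4288 to 5144 against 5600 to 6760 CPM) and microglial markers for 5 of 7 (173 to 230 against 254 to 349 CPM). Neuronal markers were lower for 2 and higher for 1 of 8 (5679 to 6235 against 6049 to 6536 CPM), and 1 of 6 endothelial markers was higher (195 to 222 against 159 to 213 CPM). The median log2 fold changes of the neuronal and endothelial lists were -0.06 and -0.0008. No shift is read from their calls, beside 34.4% of all genes called in either direction. No marker was at 0 in any library. In whole brain, fewer cells of a type and less RNA per cell cannot be told apart, and the part of these shifts in the levels of the 10 genes, of Maob or of Aldh9a1 was not tested.

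Sex did not enter the choice of the genes, so it could be tested, and Sat1 and Sms are X-linked. The number of members that passed for the labelled sex was 0 and for genotype by sex 0 (edgeR), where 0% of all genes passed in either test. At an unadjusted p under 0.05 there were 0 members for sex and 2 for the interaction, beside 796 and 984 of all genes, and DESeq2 also called 0 members. The 2 were Azin1 (interaction, female minus male, log2 difference -0.28, SE 0.10, adjusted p = 0.832) and Paox (-0.59, SE 0.25, adjusted p also 0.832), both named after their values were seen. For Sat1 the female minus male difference was 0.04 (SE 0.15, adjusted p = 0.99) and the interaction -0.14 (SE 0.30, adjusted p = 0.957). Without the library whose sex label did not match, these were 0.05 and -0.13 and again 0 members passed. In those fits 8 of 17036 genes passed for sex and 0 for genotype by sex, so 0 members is near the share of all genes. With that library included even Xist ranged from 0 to 448 CPM in libraries labelled male, so the sex test on these labels was weak.

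Within a genotype the libraries differed enough to ask which members moved together. For 5 functional pairs in each genotype, 10 tests in all, only Sat1 with Smox in Rik null passed. Over the 7 Rik null libraries their log2 CPM had Pearson r = 0.92 (exact permutation p = 3.97e-04, adjusted p = 0.00397) and Spearman rho = 0.96 (exact permutation p = 0.00278, adjusted p = 0.0278). Replicates 1 and 5 were highest and replicates 2 and 3 lowest for both genes. Leaving out replicates 2 and 3, the farthest from the median of Sat1, gave r = 0.97 over 5 libraries, too few to pass (adjusted p = 0.167, exact permutation test). Leaving out Rik null replicate 1 gave r = 0.90 (n = 6, exact permutation p = 0.00556, adjusted p = 0.0556), which no longer passed. How many pairs of other genes would reach such an r was not counted, so no link particular to this pair is read from it. With genotype means removed and both genotypes pooled, Smox had r = 0.91 with Oaz1, 0.85 with Oaz2 and 0.69 with Sat1. That pooled 0.69 is below the values of Sat1 with Smox within Rik null (0.92) and within WT (0.82). Smox with the antizymes was not computed within each genotype, so no order of closeness is read from the pooled values.

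In WT, Sat1 with Smox had r = 0.82 (exact permutation p = 0.0230, adjusted p = 0.115) and rho = 0.79 (exact permutation p = 0.0480, adjusted p = 0.240). Without WT replicates 1 and 2, r fell to 0.45. The other 4 pairs, Odc1 with Azin1, Odc1 with Oaz1, Srm with Sms and Sat1 with Odc1, had adjusted p of 0.592 to 0.821 in both genotypes (exact permutation test). Whether the correlation of Sat1 and Smox differed between genotypes was not tested.

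**Figure D3:**
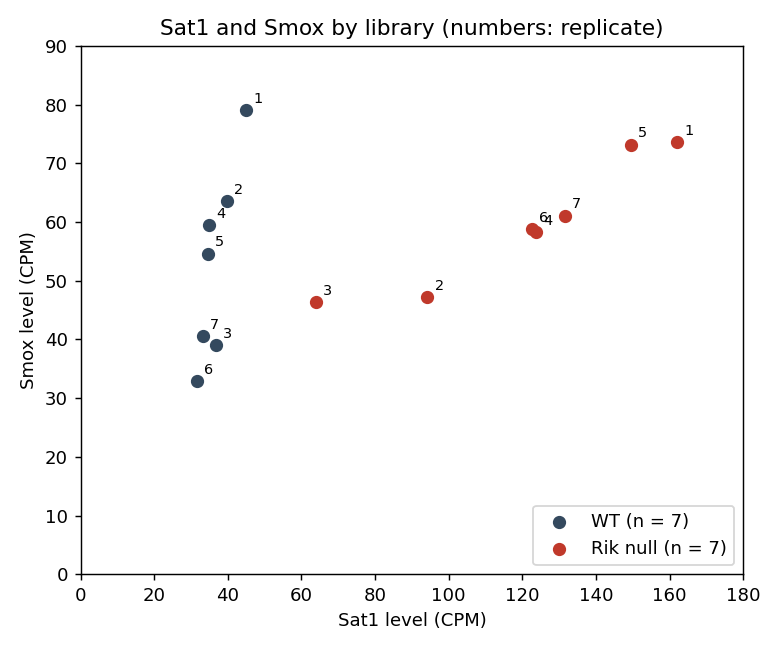
Sat1 level (x axis, CPM) against Smox level (y axis, CPM) in each of the 14 libraries, numbered by replicate, with Rik null in red and WT in dark blue. The genotypes are separate along the Sat1 axis (64.0 CPM and above against 45.0 CPM and below) and overlap along the Smox axis, and within Rik null the libraries high in Sat1 are also high in Smox.

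Across all 45 pairs of members, with the genotype mean removed and over the same 14 libraries, Pearson r ran from -0.62 to 0.97 with a median of 0.20. The highest were between Oaz1 and Oaz2 (0.97), Oaz1 and Smox (0.91), and Oaz2 and Smox (0.85), and Sat1 followed both antizymes (0.75 each). The lowest was between Amd1 and Sat1 (-0.62). The synthetic enzymes Odc1 and Sms went together at 0.69. These values share libraries, depth and scaling and are given as a description. The second principal component of all genes ordered the libraries in a like way, since WT replicates 1 and 2 (31.8 and 25.3) and Rik null replicates 1 and 5 (22.3 and 10.3) had the highest scores of their genotypes and WT replicate 6 (-33.5) and Rik null replicate 3 (-19.0) the lowest. The part of that component in these correlations was not tested.

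**Figure D4:**
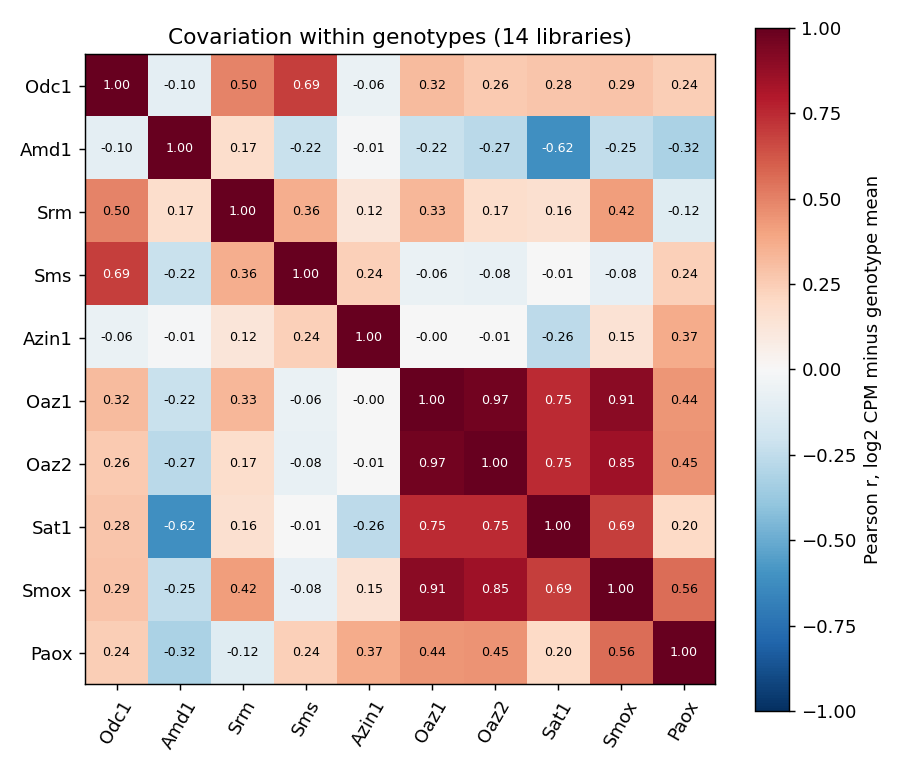
Pearson r between members (rows and columns) of log2 CPM after subtracting each genotype mean, over 14 libraries, from -1 (blue) to 1 (red). Oaz1, Oaz2, Sat1 and Smox form a block of values from 0.69 to 0.97, and Amd1 with Sat1 is at -0.62.

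Among 10314 genes of at least 10 CPM, those most like Sat1 by this measure over 14 libraries were Map7d1, Slc3a2 and Camk2n2 (r = 0.92 each), and they were at 0.93, 0.90 and 0.90 without Rik null replicate 1. Slc3a2, the shared heavy chain of several amino acid transporters, was also on the transport list and did not differ past the threshold between genotypes (log2 fold change 0.12, SE 0.06, adjusted p = 0.113). Those most like Odc1 were Arcn1 (0.93), Txnip (0.92) and Wdr45b (0.92), which dropped to 0.59, 0.67 and 0.59 without Rik null replicate 1. The likeness to Odc1 thus depended on that library, in which Odc1 was highest.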

How the data were processed

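The deposited table holds, from the authors, raw counts and FPKM (counts per kb of gene length and M reads), with gene length, for 14 libraries. A commercial provider prepared, sequenced and analysed them, and the submitters' notes name GRCm38. Which aligner, counting tool, annotation and strand setting were used is not given in the sources here. The authors' fold changes, p-values and group means in the same table were not used. Gene identifiers were looked up in GENCODE M21 (GRCm38) for positions, and sequences came from its transcripts or RefSeq promoters.

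Counts were tested in edgeR 4.0.16 (R 4.3.3) with the two-sided quasi-likelihood test (glmQLFit, glmQLFTest), genotype as the only term, TMM scaling, filterByExpr, and Benjamini-Hochberg adjustment over 16882 genes at a threshold of 0.05. The SE is the absolute log2 fold change divided by the square root of F. Log2 CPM used a prior count of 2. Members, lists and tests were chosen with earlier results of these data known. Named genes were all members, Rik, up to 4 passing genes per list, and the 3 genes most like Sat1 and Odc1. Scripts were tested on simulated data. Alternatives were other scalings and filters, DESeq2 1.42.0, sex as a covariate, a replicate block, each sex alone and each library left out. No pair of libraries of one genotype had a chi-square under 4.47 per degree of freedom, so none was treated as a duplicate. The labels give no batch. Libraries held 14.7 to 17.9 M counts, and the common biological coefficient of variation was 14.3%.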

Additional observations from a re-analysis of the deposited data

Results flagged for a closer look

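Of 20 sets of 7 libraries (10 genes in 2 genotypes), 1 held a library far from the others. Odc1 was at 81.7 CPM in Rik null replicate 1, and the gap to the next Rik null library took up 0.786 of the whole range of the group, above the limit set for 7 values by Dixon's test. Chance marks about 1 in 20 such sets.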

How the results depend on the processing

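Sat1, Srm, Mat2a, Maob and Aldh9a1 kept their direction and call in all 25 alternatives. Leaving out each library gave 1 to 1 members higher, 3 to 6 lower, 4 to 7 pathway genes higher and 5 to 9 lower, and a member median of -0.19 to -0.15. Females alone gave 2 members lower and 1 pathway gene higher, and males alone gave 3 pathway genes higher and 2 lower, from fewer libraries and with 1 library under a doubtful sex label. Odc1 passed in 6 of 25 alternatives, Sms in 3, and Oaz1 lost its call in 13. Amd1 lost its call in females alone and Azin1 in males alone. Uncalled log2 fold changes reversed for Oaz2 (females alone -0.034, without Rik null replicate 1 and WT replicate 4 together -0.022, leaving out each library -0.013 to 0.10, with the reversal without WT replicate 6), Smox (females alone -0.11) and Paox (females alone -0.084). Library size alone gave 9 pathway genes higher and 5 lower, with 3 members lower, and moved the median of all genes to 0.07 and the share of calls that were higher from 47.9% to 63.8%.

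Pair correlations that reversed sign were Odc1 with Azin1 in Rik null (Spearman 0.29, without the 2 farthest libraries 0.98, without replicate 1 0.83), Odc1 with Oaz1 in Rik null (-0.023 without the 2 farthest, -0.16 without replicate 1) and in WT (library size alone -0.14, Spearman -0.036, without the 2 farthest -0.40), Srm with Sms in WT (Spearman -0.036, without the 2 farthest -0.57), and Sat1 with Odc1 in WT (0.18 without the 2 farthest) and in Rik null (-0.38 without replicate 1). Sat1 with Smox in Rik null lost its call without the 2 farthest (0.97) and without replicate 1 (0.90), with fewer libraries. Leaving out replicate 1 for pairs and likeness was chosen after seeing the data. The cause of these changes was not tested.

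Libraries with the same replicate number correlated at -0.06 to 0.14. For replicates 1, 4 and 6, the WT library of the same number was the closest to the Rik null library. The paper describes the mice as littermates, but the sample titles name no litter. Such weak correlations cannot decide whether the numbers mark pairs, and the main test treated the libraries as unpaired. A replicate block gave 1 member higher and 5 lower, 5 pathway genes higher and 6 lower, and 5966 calls over all genes against 5810.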
